A study of Mus musculus with 55 samples.

Results

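The comparison set 9 wild-type livers that received a hairpin against Glud1 beside 10 wild-type livers that received a control hairpin, 19 of the 55 libraries of the series. Members were chosen by the strain and vector in the column headings, and every one of the 19 was used. All mice were male wild-type hybrids of the stock B6EiC3SnF1/J (WT), which carry an intact Otc gene. They were 4 months old when an adeno-associated virus (AAV), used as a carrier of the hairpin gene, was injected into a vein at week 0. In the control group the virus encoded a scrambled short hairpin RNA, and in the sh-Glud1 group a hairpin against Glud1. From week 2 the food of all mice held 40% protein, and livers were taken at week 5, when the mice were 5 months old. Controls therefore also carried virus, a hairpin and the high-protein diet. For the virus serotype, the promoter driving the hairpin and the hairpin sequence, nothing was found in the sources used here. For reference there are 3 further groups: 10 WT livers with a hairpin against Gls2 (WT sh-Gls2), and, from mice labelled B6EiC3Sn a/A-Otcspf-ash/J, whose Otc allele lowers the urea cycle enzyme ornithine transcarbamylase, 8 control livers (OTC control) and 8 livers with the hairpin against Glud1 (OTC sh-Glud1). The remaining group of the series, 10 OTC livers with the hairpin against Gls2 (OTC sh-Gls2), is not described here. Its libraries entered the fits over all 55 libraries, in which the groups share their estimate of the spread. Libraries were poly(A)-selected, strand-specific and carried between 15321137 and 21052417 counts in WT sh-Glud1 and between 16023185 and 22781052 in WT control.

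Glud1 encodes glutamate dehydrogenase of the mitochondrial matrix, which turns glutamate into 2-oxoglutarate and free ammonia, and can run in the opposite direction. In liver much of the nitrogen of dietary amino acids is gathered on glutamate by transaminases. The ammonia that glutamate dehydrogenase and glutaminase (Gls2, which splits glutamine) release in the mitochondrion feeds carbamoyl phosphate synthetase (Cps1) and so the urea cycle. The comparison asks what the hairpin against Glud1 did to liver messenger RNA in mice whose urea cycle is intact.

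Glud1 messenger RNA was lower in every sh-Glud1 liver than in every control liver. In CPM (counts divided by library size after TMM normalization), the control livers held a lowest value of 844, a median of 1020 and a highest value of 1212. The 9 sh-Glud1 livers held 254 (mouse 70), 256 (mouse 57), 259 (mouse 56), 343 (mouse 32), 374 (mouse 69), 388 (mouse 17), 497 (mouse 40), 521 (mouse 15) and 583 (mouse 37). The ranges did not overlap. The least affected liver kept 56.3% of the control mean and the most affected 24.6%, a 2.29-fold span inside the hairpin group against 1.44-fold inside the controls. In the quasi-likelihood fit of edgeR the log2 fold change was -1.42 ± 0.12 (SE, n = 9 and 10), which leaves 37.3% of the control level with a 95% interval of 31.5 to 44.1%, at an adjusted p of 3.96e-12. An exact two-sided permutation test over the 19 livers gave p = 2.17e-05, the smallest these groups allow. On the TPM scale, which also divides by transcript length, the mean fell from 571 ± 50.8 (SD, n = 10) to 213 ± 68.2 (SD, n = 9). Mice with the hairpin against Gls2 kept 991 ± 114 CPM of Glud1 (SD, n = 10).

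**Figure D1:**
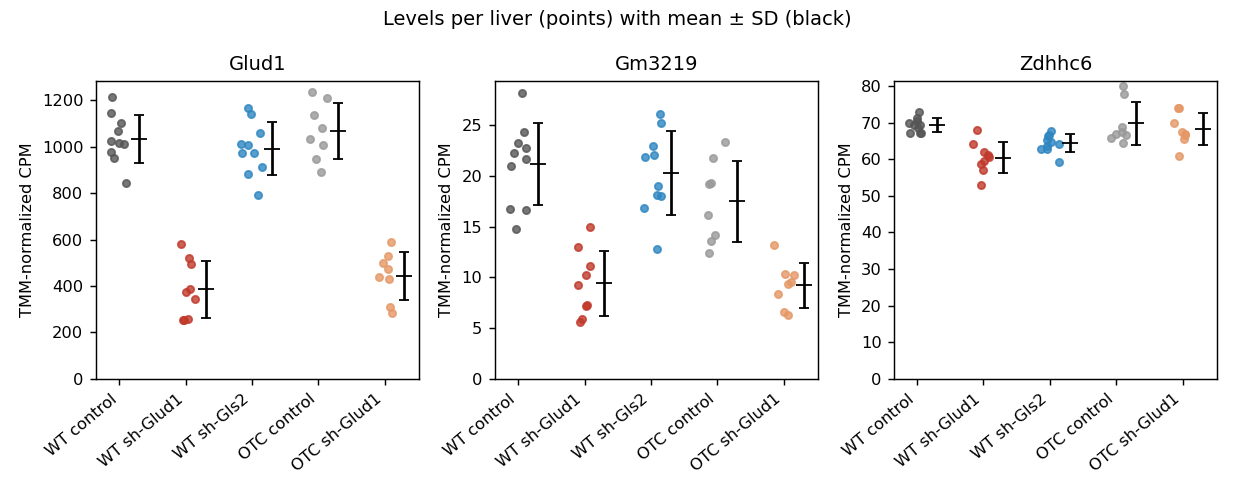
TMM-normalized CPM of Glud1, Gm3219 and Zdhhc6 in each liver of 5 groups, with 1 point per liver and the mean ± SD in black beside them; every vertical axis starts at 0. The 9 WT sh-Glud1 livers lie between 254 and 583 for Glud1, below all 10 WT controls, while Zdhhc6 differs by a small amount.

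Of 13311 tested genes, 3 passed an adjusted p below 0.05 (0.0225%), and all 3 were lower under the hairpin: Glud1, its downstream neighbour Gm3219 and Zdhhc6. No gene was called higher. A log2 fold change above 0, of any size, was found in 47.9% of genes. At an unadjusted p below 0.05 there were 697 genes (5.24%), 296 higher (2.22%) and 401 lower (3.01%). DESeq2 called 4 genes (0.0301%), the same 3 and Mt2, whose level rested on 1 control liver described below. Only 2 genes had ranges that did not overlap between the groups (0.015%), Glud1 and Zbtb18.

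Gm3219 is a pseudogene, and its identity matters for reading the value. In GENCODE M21 (build GRCm38) Glud1 lies at chr14:34310727-34345265 and Gm3219 at chr14:34345281-34345583, both on the plus strand, so that 15 bases separate them. RefSeq draws a longer Gm3219, from 34345055 to 34345686, whose first 211 bases fall inside the GENCODE model of Glud1. The RefSeq model of Glud1 itself ends at 34345033, before that start. The 303 bases of the GENCODE model are identical to bases 755 to 1057 of the Bcl7c messenger RNA, the last part of the coding sequence of Bcl7c, a chromatin remodelling subunit gene on chromosome 7. They contain no intron at the 2 places where the Bcl7c gene has one, after bases 94 and 180, which is what defines a processed copy. Bases 81 to 200 are shown here because they hold both of those joins, with the 10 bases on either side of each join in capitals.
Gm3219: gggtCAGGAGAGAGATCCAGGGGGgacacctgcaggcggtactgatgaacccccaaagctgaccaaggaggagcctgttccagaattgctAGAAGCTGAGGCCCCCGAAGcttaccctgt
The longest run of bases that this GENCODE model shares with the Glud1 messenger RNA on the same strand is 9. The median over 12779 tested genes with a GENCODE transcript is 12. The longer RefSeq model, with 211 bases inside the GENCODE model of Glud1, was not compared in this way. Which of the 2 models was counted is not stated in the sources used here. The lengths behind the TPM values were not compared with either model. Whether reads of Glud1 were counted as Gm3219 was not tested.

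The control livers held between 14.8 and 28.2 CPM of Gm3219 with a median of 22.0, and the sh-Glud1 livers between 5.61 and 14.98 with a median of 9.28. All but the sh-Glud1 liver of mouse 37 lay below the lowest control. Gm3219 stood at 44.2% of control (95% interval 35.6 to 54.9%), a log2 fold change of -1.18 ± 0.16 (SE) with an adjusted p of 3.82e-06 in edgeR's quasi-likelihood test. Its sequence twin Bcl7c, which shares reads with it, stood at 84.8% of control (71.1 to 101%), and its livers lay between 3.87 and 7.05 CPM in controls and between 3.55 and 6.79 CPM under the hairpin. Per length, Gm3219 was the more abundant of the pair, with a mean of 54.8 TPM in controls against 9.22 TPM for Bcl7c. The counting program is not named in the sources used here, so how reads that match both genes were assigned is not known, and the single-gene values of both are uncertain.

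Gm3219 was also read against Glud1 liver by liver. Gm3219 counts came to 2.04% ± 0.267 of Glud1 counts in the controls (SD, n = 10) and 2.43% ± 0.304 under the hairpin (SD, n = 9), a higher ratio in the hairpin group (exact two-sided permutation p = 0.00706). In WT sh-Gls2, where Glud1 was not targeted, the ratio was 2.03% ± 0.233 (SD, n = 10). Among the 9 sh-Glud1 livers alone, each doubling of residual Glud1 went with a change of 1.001 ± 0.14 (SE) log2 units in Gm3219. That slope did not pass the test over all genes (edgeR adjusted p = 0.179).

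Zdhhc6 encodes a palmitoyltransferase of the endoplasmic reticulum and lies at chr19:55271291-55316032 on the minus strand. Controls were tightly grouped, between 67.1 and 72.8 CPM with a median of 69.3. The sh-Glud1 livers ranged from 52.99 to 67.9 CPM with a median of 60.6, and 8 of the 9 lay below the lowest control. The level was 87.2% of control (95% interval 82.5 to 92.2%), a log2 fold change of -0.20 ± 0.04 (SE) at an adjusted p of 0.0328, so the whole interval lay within 1.5-fold. The call was lost in 13 of the 19 fits that left out a single library, where the adjusted p ranged from 0.00429 to 0.186. It was also lost, with an edgeR adjusted p of 0.157, when the 2 groups were fitted alone, and at 0.109 without control mice 7 and 13. In WT sh-Gls2, which was compared with the same controls, Zdhhc6 was also lower than control (64.3 ± 2.44 CPM, SD, n = 10, edgeR adjusted p = 0.0252). The 2 hairpins did not differ at the threshold for this gene (-0.09 ± 0.04, SE, edgeR adjusted p = 0.0802). In OTC livers the log2 fold change of Zdhhc6 under sh-Glud1 was -0.03 (95% interval -0.12 to 0.05). The longest run it shares with the Glud1 messenger RNA is 13 bases, and 42.9% of the tested genes share a run at least as long. Runs of 19 bases or more occurred in 7 other genes, none of which was called.

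Zbtb18, which encodes a zinc finger repressor, is named because it separated the groups, a choice made after its values were seen. Controls lay between 27.0 and 33.7 CPM and sh-Glud1 livers between 22.5 and 26.6 CPM. Its log2 fold change was -0.29 ± 0.08 (SE), and the edgeR adjusted p was 0.374 in the fit over all groups and 0.0252 when the 2 groups were fitted alone.

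With so few calls, the width of each gene's interval carries most of the information. A gene is called bounded here when both limits of its own 95% interval lay within 1.5-fold of control, that is between 66.7 and 150% of the control level. The intervals are per gene and were not widened for the number of genes. Of the 13311 genes, 10642 were bounded (79.9%), 7335 had both limits within the tighter margin of 80 to 125% (55.1%), and 12449 lay within 2-fold (93.5%). The median half-width was 0.209 on the log2 scale and the median log2 fold change -0.01. The share differed with abundance. It was 15.6% among 1284 genes with a mean of at most 0 log2 CPM, 62.5% from 0 to 2, 89.8% from 2 to 4, 95.3% from 4 to 6 and 93.5% from 6 to 8, and 87.5% of 440 genes above 8. For the 2669 genes that were not bounded, a difference beyond 1.5-fold was neither shown nor bounded in most cases, and only 12 had an interval wholly outside 1.5-fold.

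**Figure D2:**
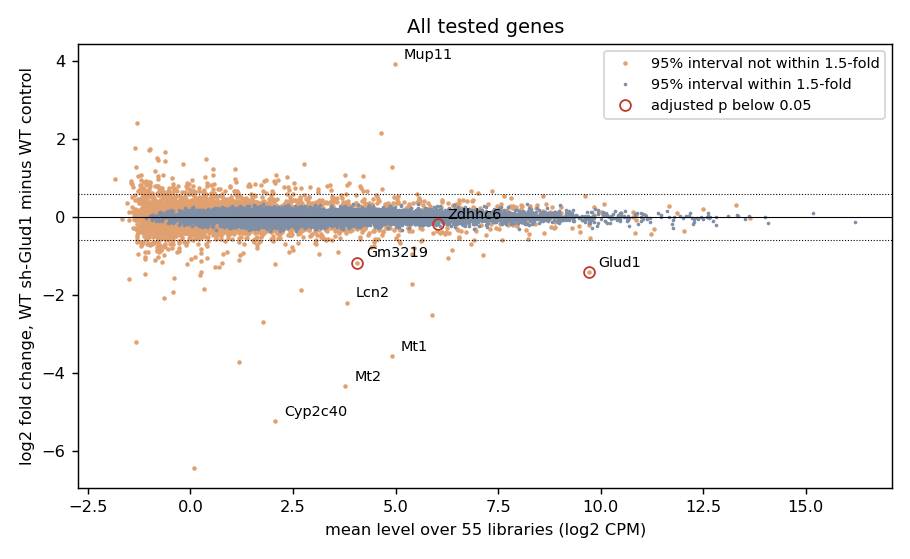
Log2 fold change of WT sh-Glud1 minus WT control for each of 13311 genes against its mean log2 CPM over all 55 libraries, coloured by whether the 95% interval lay within 1.5-fold (dotted lines), with red rings at the 3 called genes. The large negative values of Cyp2c40, Mt2, Mt1 and Lcn2 have no ring and each rests on 1 control liver.

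The genes around Glud1 in nitrogen metabolism were then described. Over 6 lists of glutamate and glutamine enzymes, regulators of glutamate dehydrogenase, mitochondrial carriers, the urea cycle, and histidine and proline breakdown, 55 tested genes other than Glud1 had a median log2 fold change of 0.04. Of these 55, 51 were bounded and 29 lay within the tighter margin of 80 to 125%, against 79.9% and 55.1% of all genes. The share inside the tighter margin was thus no higher than that of all genes. Of all genes, 89.8% were bounded from 2 to 4 log2 CPM, 95.3% from 4 to 6 and 93.5% from 6 to 8. The 55 genes were not matched for abundance. None was called, 1 was higher at an unadjusted p below 0.05 and none was lower, where 2.22% and 3.01% of all tested genes were.

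Among enzymes that act on the same substrates as glutamate dehydrogenase, Gls2, the liver glutaminase, stood at 98.4% of control (95% interval 85.5 to 113%). Glul, the glutamine synthetase of hepatocytes around the central vein, stood at 91.9% (67.1 to 126%), just inside the margin. The mitochondrial aspartate aminotransferase Got2 was at 108% (101 to 115%), the 1 gene of the 55 with an unadjusted p below 0.05 (p = 0.0175). Its lowest control value, 378 CPM, came from mouse 7, and the log2 fold change went from 0.11 to 0.08 without control mice 7 and 13. The alanine aminotransferases Gpt (113%, 96.7 to 131%) and Gpt2 (117%, 94.9 to 145%) and ornithine aminotransferase Oat (90.1%, 67.5 to 120%) were bounded too. Got1, the cytosolic aspartate aminotransferase, was not, at 110% with an interval of 70.9 to 171%. The other genes of the 55 outside the margin were Psat1 and Asns, which make serine and asparagine, and Cad, which starts pyrimidine synthesis. Their intervals ran from 69.9 to 159%, from 40.5 to 140% and from 59.2 to 106% of control.

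The lists of glutamate dehydrogenase regulators and of mitochondrial carriers were bounded in every tested case, 7 of 7 and 10 of 10 genes. Both lists are wider than their names. The first also holds Tfam and Slc25a10, and the second Slc25a1, Slc25a38 and Slc25a44. The carriers Slc25a18 and Slc25a2 were not tested. Sirt4, which inhibits glutamate dehydrogenase by ADP-ribosylation, stood at 92.8% (82.8 to 104%). Sirt3, which deacetylates it, was at 103% (91.4 to 116%), and Hadh, whose protein binds and inhibits it, at 103% (90.6 to 116%). The glutamate carrier Slc25a22 was at 87.6% (72.3 to 106%), the aspartate-glutamate carrier Slc25a13 at 103% (92.3 to 115%) and the ornithine carrier Slc25a15 at 103% (84.4 to 125%). The widest interval in these lists belonged to Slc25a29, a carrier of basic amino acids, at 68.6 to 130%.

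All 8 tested urea cycle genes, a list that shares Slc25a13 and Slc25a15 with the carriers, were bounded, with point values between 100.1 and 107% of control. Cps1, which fixes free ammonia, stood at 107% (90.1 to 126%), and Otc at 106% (94.4 to 118%). Ass1 and Asl, which make and split argininosuccinate, stood at 107% (90.2 to 127%) and 107% (78.7 to 144%). Arg1, the arginase that releases urea, was at 105% (85.4 to 129%), and Nags, whose product activates Cps1, at 100.1% (89.8 to 112%). Histidine breakdown was bounded in 4 of 4 genes, from Hal (92.7%, 75.8 to 113%) to Ftcd (110%, 99.4 to 121%). Proline and hydroxyproline breakdown was bounded in 6 of 6, with Prodh at 106% (83.6 to 135%) and Aldh4a1, which makes glutamate from the proline product, at 108% (96.0 to 122%).

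**Figure D3:**
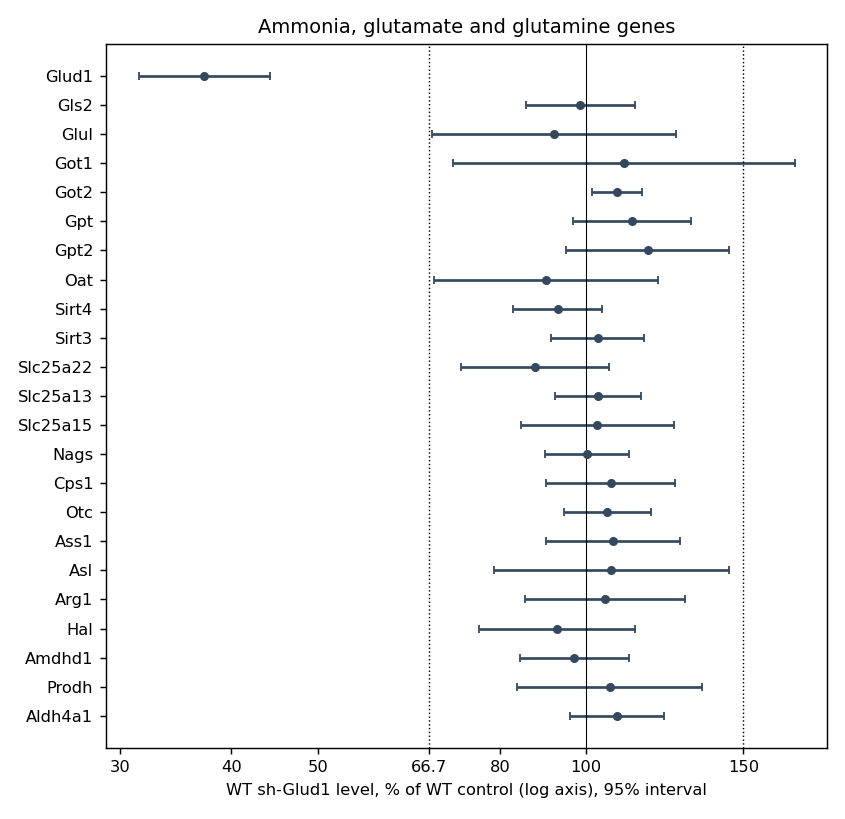
WT sh-Glud1 level as a percentage of WT control, on a log axis, with 95% intervals from the edgeR fit (n = 9 and 10), for Glud1 and 22 genes of ammonia, glutamate and glutamine metabolism; dotted lines mark 66.7 and 150%. Glud1 alone lies to the left of the lines, at 37.3%, and Got1 is the only other gene whose interval crosses one.

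Of the 49 lists with a tested gene, 9 had every tested member bounded, 5 of them the nitrogen lists just described. Nuclear genes of oxidative phosphorylation were measured closely, with 52 of 52 inside the tighter margin, limits between 88.0 and 124% of control, and a median log2 fold change of 0.06. Atp5b and Atp5a1, the main subunits of the ATP synthase head, were the most abundant of them. Proteasome subunits lay inside the tighter margin in 31 of 31, with limits between 90.2 and 115%. Branched-chain amino acid oxidation was bounded in 20 of 20, with Ppm1k, the phosphatase that activates the branched-chain keto acid dehydrogenase, the widest at 73.7 to 108%. Genes of the microRNA and RNA interference machinery, which a hairpin draws on, were bounded in 15 of 15, with limits between 82.0 and 130% and a median of -0.01.

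Of 29 tested tricarboxylic acid cycle genes, 27 were bounded, and the exceptions were Me1 and Pdk4, whose intervals ran from 79.9 to 183% and from 56.4 to 136%. Cytosolic ribosomal proteins were bounded in 44 of 47, with Rpl26 the widest at 16.04 to 1078%. Breakdown of other amino acids was bounded in 8 of 9 genes for phenylalanine and tyrosine, 9 of 10 for tryptophan, 13 of 14 for serine, glycine and threonine, and 6 of 7 for lysine. In the methionine cycle and transsulfuration 11 of 13 were bounded. Csad, the taurine synthesis enzyme, was outside at 51.4% of control (34.1 to 77.7%) (edgeR adjusted p = 0.729). Amino acid transporters of the plasma membrane (16 of 24), targets of the amino acid response factor ATF4 (15 of 28) and chaperones of the endoplasmic reticulum (12 of 18) were bounded in part, where the share of all genes was 79.9%; the differences from that share were not tested.

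**Figure D4:**
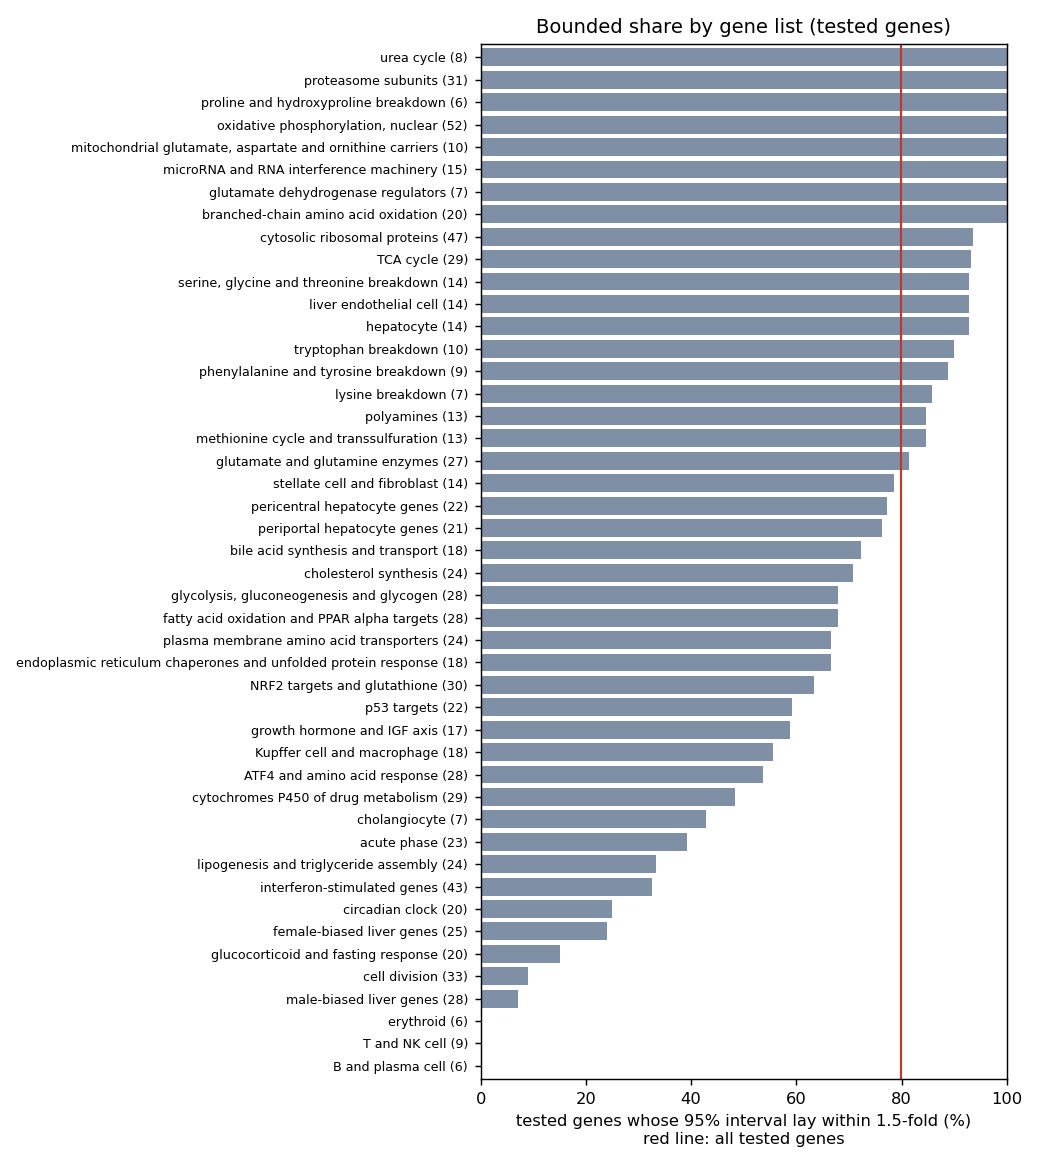
Share of tested genes whose 95% interval lay within 1.5-fold, for each list with at least 6 tested genes (number in brackets), with a red line at the 79.9% of all tested genes. The urea cycle, carriers, oxidative phosphorylation, proteasome and branched-chain lists reach 100%, while lymphocyte, sex-biased, cell division and clock lists lie at the bottom.

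Lists of other liver functions were bounded in part. Glycolysis, gluconeogenesis and glycogen genes were bounded in 19 of 28 with a median of 0.14. Among them Pck1, which commits carbon to gluconeogenesis, stood at 96.8% (70.1 to 134%). Fatty acid oxidation and PPAR alpha targets were bounded in 19 of 28 with a median of 0.03. Fabp1, the liver fatty acid binding protein and the most abundant of them, was not bounded, at 109% (70.6 to 168%). Bile acid genes were bounded in 13 of 18, with the export pump Abcb11 at 101% (84.4 to 121%) and the uptake carrier Slco1a1 the widest at 38.05 to 295%. Genes of NRF2 and glutathione were bounded in 19 of 30, and the cystine carrier Slc7a11 was the widest at 33.1 to 194%. Cytochromes P450 of drug metabolism were bounded in 14 of 29, with Cyp3a11 at 96.1% (81.3 to 114%) and Cyp2e1 at 97.4% (78.9 to 120%). The zonal lists were close to the background share, 17 of 22 pericentral and 16 of 21 periportal genes.

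Chaperones of the endoplasmic reticulum had a median of -0.11, and Hspa5, the main folding chaperone, stood at 85.1% (64.1 to 113%). Without control mice 7 and 13 the median was -0.01. In OTC livers it was 0.25. Cth, a cysteine synthesis enzyme on the ATF4 list, stood at 113% (85.0 to 149.5%), and the glutamine carrier Slc38a3 at 100.5% (86.6 to 117%). Polyamine genes were bounded in 11 of 13. The exception with the largest value was Amd1, which makes the aminopropyl donor of polyamines, at a log2 fold change of -2.70. It went to -1.56 without the control liver of mouse 11, with an edgeR adjusted p of 0.384 over all livers.

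Fat synthesis could not be bounded. Only 8 of 24 tested lipogenesis and triglyceride assembly genes lay within the margin. The list median was 0.28, and 1 member, Mttp, which loads lipid onto apolipoprotein B, was higher at an unadjusted p below 0.05. Of all tested genes 2.22% were higher at that p. Fasn, the fatty acid synthase, stood at 145% of control with an interval of 87.2 to 240%, and Scd1, the stearoyl desaturase, at 124% (75.3 to 205%). Cholesterol synthesis genes had a median of -0.08, with 17 of 24 bounded. Hmgcs1, which commits acetyl units to the pathway, stood at 67.3% (44.04 to 103%) and overlapped widely between groups, from 142 to 740 CPM in controls and from 167 to 313 CPM under the hairpin.

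Interferon-stimulated genes were bounded in 14 of 43. Their median was 0.28, with 7 of 43 higher at an unadjusted p below 0.05 and none lower, where 2.22% of all tested genes were higher. None was called. B2m, the light chain of class I molecules and the most abundant, stood at 106% (97.4 to 116%), and Psmb8, an interferon-induced proteasome subunit picked for its small p, at 137% (115 to 163%, adjusted p = 0.425 in edgeR). Psmb8 ranged from 11.9 to 22.1 CPM in controls and up to 26.9 CPM under the hairpin, where the median was 22.0 CPM against 15.1 CPM. In the OTC livers the median of the list under the same hairpin was 0.22.

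Markers of T and natural killer cells had a median of 0.61, with 5 of 9 tested genes higher at an unadjusted p below 0.05 (2.22% of all tested genes), none called and none bounded. Counts were low. Gzma, a granule protease, had a median of 0.231 CPM in controls and 0.679 CPM under the hairpin, and Ccl5, a chemokine, was at 178% of control (105 to 301%). The summed level of all 13 markers had a median of 5.79 CPM in controls and 12.0 CPM under the hairpin. The ranges overlapped, from 5.0 to 14.8 CPM in controls and from 6.1 to 13.5 CPM under the hairpin. In OTC livers the list median was 0.08. In WT sh-Gls2, set against the same controls, it was 0.60. Between sh-Glud1 and sh-Gls2 the median difference was 0.01, with 1 of the 9 genes called higher in sh-Glud1 and 0 lower. In whole liver, a change in the number of cells of a type and a change in RNA per cell cannot be told apart. The part of these cells in the interferon list was not tested. Summed markers of hepatocytes (108733 to 165326 CPM in controls, 120279 to 148160 CPM under the hairpin), Kupffer cells, stellate cells, endothelial cells, bile duct cells, B cells, neutrophils and erythroid cells also overlapped between the groups. Endothelial markers were bounded in 13 of 14 and Kupffer cell markers in 10 of 18. Of the adipocyte, muscle and pancreas markers, Plin1, Lep, Prss2, Cpa1, Pnlip and Ctrb1 were at 0 in all 19 livers.

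Cell division genes had a median of 0.24 and 3 of 33 were bounded. Summed over the list, controls had a median of 92.0 CPM and sh-Glud1 livers 101 CPM, with overlapping ranges. Of the 33 tested genes of the list, 3 were higher at an unadjusted p below 0.05, where 2.22% of all tested genes were. None was called. The largest value with a small p was that of Mcm6, a replication helicase subunit, at 167% of control (125 to 223%, adjusted p = 0.425 in edgeR), from 2.00 to 7.01 CPM in controls and from 4.24 to 11.1 CPM under the hairpin.

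Among the controls, mice 7 and 13 stood apart from the other 17 livers. Mouse 7 held 487 CPM of Mt1 and 221 CPM of Mt2, metallothioneins that bind zinc and copper, where the other 17 held 1.59 to 11.2 and 0.306 to 3.13 CPM. It also held 156 CPM of Lcn2 and 868 CPM of Saa2, both acute phase genes, against at most 8.79 and 176 CPM in the others. Mouse 13 held 182 CPM of Cyp2c40 and 504 CPM of Cyp2a4, cytochromes P450 typical of female liver, against at most 1.16 and 27.0 CPM in the others. The same liver held 1.40 CPM of the male-typical steroid enzyme gene Hsd3b5, against at least 52.3 CPM in the others.

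The group differences followed these livers. The acute phase list had 11 of 23 genes lower at an unadjusted p below 0.05, where 3.01% of all tested genes were, and a median of -0.29, which became -0.09 without the 2 mice. Cyp2c40 went from a log2 fold change of -5.23 to 0.63, Mt2 from -4.34 to -0.16, Mt1 from -3.57 to -0.36 and Lcn2 from -2.20 to 0.21. The median of the female-biased list changed sign, from -0.13 to 0.07. That of the male-biased list did too, from 0.05 to -0.04. In all, 23 genes whose mean level reached 1 log2 CPM differed more than 2-fold, 14 of them lower, and 8 of the 23 were within 2-fold without the 2 mice. The number past 2-fold at that level was 38 without them, so leaving them out did not lower the count. Both called values at the Glud1 locus were as large without them (-1.45 for Glud1 and -1.20 for Gm3219). The highest fold change among them, that of Mup11, a major urinary protein gene with near-identical copies, rested on the sh-Glud1 liver of mouse 32, without which the log2 value went from 3.91 to -8.36. Its median was 0 CPM in both groups, so the fitted value is not a measure of size.

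Expression was then set against residual Glud1 within the 9 sh-Glud1 livers, as the change in log2 expression per doubling of Glud1. This uses no control liver. Of 12715 genes tested, none passed an adjusted p below 0.05 in edgeR (0%), the smallest being 0.141, and 1077 had an unadjusted p below 0.05 (8.47%). No other tool was run on the slopes. The slope was bounded within 1.5-fold per doubling for 8515 genes (67%), with a median half-width of 0.28 log2 units. The same calculation within the 10 controls, whose Glud1 spans only 0.52 log2 units against 1.195, gave 0 called and 2297 genes at an unadjusted p below 0.05 (17.6%), and bounded 2.32% of slopes. The lowest Glud1 among these controls, 844 CPM (next 953), was that of mouse 7, which stood apart in other genes. No control slope was fitted without mouse 7. In the 8 OTC sh-Glud1 livers the same calculation gave 0 called and 724 genes (5.57%).

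The lowest p belonged to Nnmt, nicotinamide N-methyltransferase, with a slope of -1.18 ± 0.15 (SE, edgeR adjusted p = 0.141). The 3 livers with the least Glud1 held 45.3, 56.8 and 55.1 CPM of Nnmt, and the 3 with the most held 22.6, 21.7 and 20.9 CPM. Control livers covered both, from 18.2 to 92.2 CPM, and a group difference in Nnmt was neither shown nor bounded (77.3% of control, 42.1 to 142%). In OTC sh-Glud1 livers its slope was -3.16 (unadjusted p = 0.0191). After Gm3219, the genes with a positive slope at the lowest p included Chrm3, a muscarinic receptor (slope 1.26), Thpo, thrombopoietin (0.46), and Rn45s, the ribosomal RNA precursor (1.18). Arid1b, Spsb3 and Lars2 were also among the first 8. Lars2 rose with Rn45s across these livers. Mouse 57 held 1334 CPM of Lars2 and 8210 of Rn45s, and mouse 15 held 4121 and 25575. Whether the 2 are separate signals was not tested. On the falling side stood Zfp385b, St3gal5, the ganglioside GM3 synthase (-0.62), Reck, an inhibitor of matrix proteases (-1.13), Nt5c3, Fam13a (-1.29), Tinagl1 and Upp2, a uridine phosphorylase (-1.19). None passed the adjusted threshold.

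The OTC sh-Glud1 livers, which these slopes did not use, gave the same sign for 9 of the 16 genes. The sign was shared at an unadjusted p below 0.05 for 2, Gm3219 (0.74) and Nnmt. Mouse number moved with Glud1 and Nnmt in these OTC livers, as it did in WT sh-Glud1 (described below). OTC mice 53, 58, 65 and 71 held 282 to 440 CPM of Glud1 and 55.7 to 176 CPM of Nnmt. Mice 23, 33, 42 and 44 held 472 to 588 and 5.81 to 47.4 CPM. No OTC slope was fitted with mouse number as a covariate. For Rn45s the OTC slope was -0.06 against 1.18 in WT, and the slope within WT controls was -2.48. Among those controls mouse 7 had both the lowest Glud1 and the highest Rn45s. Rn45s made up between 0.765 and 2.44% of all counts in the WT sh-Glud1 livers and between 0.737 and 2.70% in controls, and did not differ between the groups (exact two-sided permutation p = 0.921). The slope of Zdhhc6 was 0.17 ± 0.06 (SE, edgeR adjusted p = 0.539) in WT sh-Glud1 and 0.00 in OTC sh-Glud1.

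**Figure D5:**
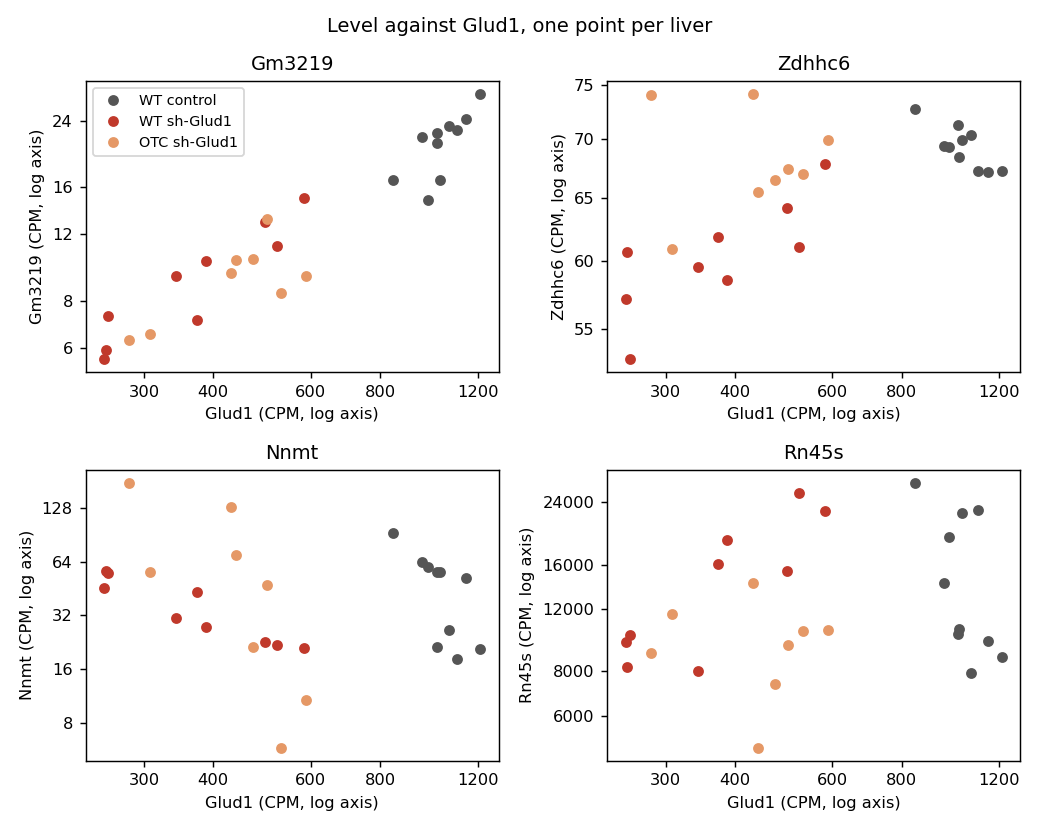
CPM of Gm3219, Zdhhc6, Nnmt and Rn45s against CPM of Glud1, with 1 point per liver and log axes, for WT control, WT sh-Glud1 and OTC sh-Glud1. Across the WT sh-Glud1 livers Gm3219 spans 5.61 to 14.98 CPM, with the high values at high Glud1, and Nnmt goes from 56.8 to 20.9 CPM across the same livers while the controls spread over the same levels.

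Of the nitrogen genes, all 8 urea cycle slopes were bounded, with a median of -0.10 and none at an unadjusted p below 0.05. Slopes were bounded in 7 of 7 regulators of glutamate dehydrogenase, 4 of 4 histidine genes, 9 of 10 carriers, 5 of 6 proline genes (1 negative at an unadjusted p below 0.05) and 19 of 25 glutamate and glutamine enzymes (1 positive). In OTC sh-Glud1 livers the median slope was -0.50 for the urea cycle and -0.43 for the carriers, where the median of all genes was 0.00. Slopes there were less precise, with a median half-width of 0.55 log2 units and 30.5% of all slopes bounded, against 67% in WT sh-Glud1. Residual Glud1 also moved with mouse number in those livers, and these list medians were not tested. All 52 oxidative phosphorylation slopes and all 31 proteasome slopes were bounded as well, with medians of -0.01 and 0.04. The list of circadian clock genes had a median slope of -0.39, where the median of all genes was 0.00. In it 10 of 20 genes had a negative slope and 1 a positive slope at an unadjusted p below 0.05, against 4.48% and 3.99% of all genes. Dbp, a clock output factor (slope -2.29), and Per3 (-1.54) were among the negative ones, and Arntl, the core activator (1.02), was the positive one. Dbp covered 4.40 to 67.9 CPM in these 9 livers and 0.125 to 72.6 CPM in controls. Mouse number moved with Glud1, Dbp and Nnmt. The 4 mice numbered from 56 held 254 to 374 CPM of Glud1, 34.6 to 67.9 CPM of Dbp and 43.4 to 56.8 CPM of Nnmt, and the 5 mice numbered up to 40 held 343 to 583, 4.40 to 12.6 and 20.9 to 30.9 CPM. What the numbers stand for is not given in the labels. With mouse number as a covariate, which was added after seeing the data, 1 of 20 clock genes had a negative slope at an unadjusted p below 0.05 and none a positive one, and the list median was -0.22. The slope of Dbp became -0.80 and that of Per3 -0.42, while Nnmt kept -0.93 ± 0.15 (SE, edgeR adjusted p = 0.272) and Gm3219 0.86 ± 0.17 (SE, edgeR adjusted p = 0.500). No gene was called in that fit, and 722 had an unadjusted p below 0.05. In OTC sh-Glud1 livers the clock list had a median slope of -0.04.

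Cell division genes had a median slope of -0.43, with 7 of 27 negative at an unadjusted p below 0.05. Endothelial markers had a median of -0.22 with 7 of 14 negative, among them Lyve1 (-0.93). Of all genes 4.48% were negative at that p. With mouse number as a covariate, 4 of 27 and 1 of 14 were negative, with medians of -0.52 and -0.11. In OTC sh-Glud1 livers the medians of these lists were 0.08 and -0.05. None of these slopes was called.

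The same hairpin in OTC livers gave nearly the same short list. Glud1 went from 1068 to 444 CPM on average (log2 fold change -1.27 ± 0.13, SE) and Gm3219 from 17.5 to 9.22 CPM (-0.92 ± 0.17, SE), and these were the 2 genes called of 13311 (0.015%). DESeq2 called 3. The test of the difference between strains found no gene in edgeR (417 at an unadjusted p below 0.05) and none in DESeq2 (435). For Glud1 the difference, WT minus OTC, was -0.16 with a 95% interval of -0.51 to 0.19. For Zdhhc6 it was -0.16 (-0.28 to -0.05, adjusted p = 0.999 in edgeR). Medians of the cholesterol synthesis list were -0.08 in WT and 0.61 in OTC. The difference was not called for any of its genes.

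Set directly against the hairpin for Gls2 in WT livers, sh-Glud1 differed in 3946 genes (29.6%), 1884 higher and 2062 lower. DESeq2 called 4005 (30.1%). Gls2 itself averaged 434 CPM under sh-Glud1 and 204 CPM under sh-Gls2. Proteasome subunits showed the contrast of a bounded list with a moved one: 30 of 31 were lower in sh-Glud1 than in sh-Gls2 and 1 was higher. Psmc6, a proteasome ATPase, averaged 76.6 CPM in controls, 77.2 CPM under sh-Glud1 and 134 CPM under sh-Gls2. Slc20a2, a phosphate transporter, averaged 84.2, 90.5 and 34.8 CPM in the same order. Interferon-stimulated genes were lower in sh-Glud1 in 34 of 43 and cell division genes in 23 of 33, with none higher in either list. The microRNA machinery had 2 genes higher and 3 lower of 15. In the 8 urea cycle genes 2 were higher in sh-Glud1 than in sh-Gls2 and none lower.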

How the data were processed

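The authors deposited whole-number read counts per gene symbol and, in a second table, TPM values. The submitters' processing notes name the build GRCm38 and the tools CASAVA 1.8.2 and FastQC. Which aligner, counting program and annotation were used is not given in the sources used here. All 55 libraries map to the 6 groups (1 OTC control by group only). Mouse numbers differ between libraries, and 81 within-group pairs, checked for duplicates, had a chi-square of at least 11.1 times its degrees of freedom.

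From the counts, edgeR 4.0.16 (R 4.3.3) filtered genes with filterByExpr (minimum count 10, minimum total 15), scaled by TMM and fitted quasi-likelihood models over all 55 libraries with 1 term per group. P-values were two-sided and Benjamini-Hochberg adjusted over the 13311 genes, and calls were made below 0.05. SE is the size of the log2 fold change divided by the square root of F; the 95% interval uses the fit's t quantile. Slopes on centred log2 CPM of Glud1 were fitted within each group, without Glud1. Single values used exact permutation tests. DESeq2 1.42.0, limma 3.58.1 on log2(TPM + 1) and log2(TPM + 0.1), other filters, the mouse number as a covariate and each library left out served as alternatives. Code was tested on simulated counts. Twelve-cycle PCR without molecular identifiers means that counts are not independent molecules. Tests and intervals of the edgeR fits take their error from the spread between libraries within groups. For the group comparisons that spread was estimated over all 55 libraries, and for the slopes within 1 group. SD between mice describes the values and is not the error of those tests.

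The members, gene lists and tests were chosen with earlier results of these data known. The rule named Glud1, Gls2, Otc, called genes, members of 6 nitrogen lists, the first 8 genes per direction in the tracking fits, the first 6 per direction between hairpins, and the 2 most abundant and the widest member of each list; called genes with predicted names fall outside it. Gm3219 and other genes described beyond it were picked after their values were seen. Some genes these rules name are not reported here. Of 50 lists, the mitochondrially encoded one had no gene in the table. Sequences and positions come from GENCODE M21 and RefSeq (GRCm38.p6).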

Additional observations from a re-analysis of the deposited data

Results flagged for a closer look

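Among 22 genes examined in the 2 WT groups, 9 values lay far from the rest of their group, by a gap test that flags about 1 group in 20 by chance. Several of these genes were chosen because mouse 7 or 13 stood apart in them, so the number of values cannot be read against that rate. In WT control mouse 7, Mt1 was 487 CPM (next 11.3), Mt2 221 CPM (next 5.38), Lcn2 156 CPM (next 8.79), Saa2 868 CPM (next 176), Chrm3 13.5 CPM (next 6.38) and Ccl5 2.38 CPM (next 1.26), all the highest of the 10. The same liver had the lowest Got2, 378 CPM (next 471). In WT control mouse 13, Cyp2c40 was 182 CPM (next 0.849). In WT sh-Glud1 mouse 57, Mt2 was 3.13 CPM (next 1.66).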

How the results depend on the processing

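Glud1 and Gm3219 were lower and called in every setting run, and WT sh-Glud1 minus control gave between 2 and 4 called genes. With the 2 groups alone Zbtb18 was called in place of Zdhhc6. The count of bounded genes stayed within 1.5 times its value in each setting. The call of Zdhhc6 was lost with no filter (adjusted p = 0.0978), the mouse number as a covariate (0.137), the 2 groups alone (0.157) and limma on TPM (0.059 and 0.0576). Slopes within WT sh-Glud1 gave 1 call with all 55 libraries (Gm3219), and 0 to 1 when single livers were left out (Mtmr7 without mouse 70, Nnmt without mouse 69). Slopes within OTC sh-Glud1 gave 0 to 1 call without single livers. OTC sh-Glud1 minus control gave 1 call when fitted alone. The cause was not tested. No paired analysis was possible because the groups share no mouse number. The fits without WT control mice 7 and 13, and with mouse number in the slopes (0 calls), were added after seeing the data. At a mean of at most 0 log2 CPM, 15.6% of genes were bounded.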
